A study of Mus musculus with 10 samples.

Results

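The M-band genes described here were *Myom1*, *Myom2* and *Myom3*, which encode the 3 myomesins, and *Obsl1*, which encodes obscurin-like 1. They were chosen by gene symbol, with earlier results of these data known, and all 4 were found among the 57185 genes with values in the count table. Each was above 10 counts in all 10 hearts, so all 4 were among the 13452 genes tested. Left ventricular RNA, from the apex of the heart, was compared between 5 MLPKO and 5 cRADΔ/Δ-MLPKO male mice. Both groups lacked muscle LIM protein, the product of *Csrp3*, through a germline knockout, which leads to dilated cardiomyopathy, and both carried floxed *Rrad* alleles. cRADΔ/Δ-MLPKO mice carried in addition the MYH6-MerCreMer transgene, a tamoxifen-inducible Cre recombinase driven by the promoter of the cardiac myosin heavy chain gene *Myh6*, which deletes *Rrad*, the gene for the calcium channel inhibitor RAD, in cardiomyocytes. All 10 mice, the controls included, were injected once with tamoxifen, at 100 mg per kg, when 10 weeks old and were sampled 1 month later according to the methods. The sample labels give an age of 16 weeks, which does not match that timing. No MLPKO mouse with Cre but without floxed *Rrad*, and no healthy mouse, was among these samples, so Cre itself and the deletion of *Rrad* cannot be told apart.

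The M-band is the transverse structure at the centre of the sarcomere that ties neighbouring thick filaments together. Myomesins are rod-shaped proteins built from immunoglobulin and fibronectin type III domains that bind myosin near one end and pair with each other at the other end, and they connect to the end of titin. Myomesin 1 is found in all striated muscle, myomesin 2 (M-protein) in heart and fast skeletal fibres, and myomesin 3 mainly in some skeletal fibres. Obscurin-like 1 links myomesin to titin at the M-band, and outside muscle it is a subunit of the 3M ubiquitin ligase complex with CUL7 and CCDC8. An embryonic splice form of myomesin 1 is known from foetal and dilated hearts, and counts per gene do not separate it from the adult form.

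*Myom1* lies on chromosome 17 (71309628 to 71434802, plus strand), *Myom2* on chromosome 8 (15107272 to 15183541, plus strand), *Myom3* on chromosome 4 (135487017 to 135542875, plus strand) and *Obsl1* on chromosome 1 (75455954 to 75483294, minus strand), all in GRCm39 and all protein-coding in GENCODE M39. Their reference transcripts have 38, 37, 37 and 20 exons with 5703, 5456, 5584 and 5969 bases, in that order. Exons of *Obsl1* overlap those of *Inha* over 11.9% and those of *Tmem198* over 12.6% of the exon length of *Obsl1*, both on the opposite strand. *Inha* had 3.12 ± 0.702 counts per 1000000 counts of the library (CPM; SD, n = 5) and *Tmem198* 0.629 ± 0.259 CPM (SD, n = 5) in MLPKO, against 170 ± 15.8 CPM (SD, n = 5) for *Obsl1*. Long noncoding RNA genes on the opposite strand overlapped exons of *Myom2* (5.37%, 2.13% and 0.215% of its exon length). They also overlapped exons of *Obsl1* (3.37% and 2.88%) and *Myom1* (0.929%). No exon of *Myom3* was shared with another gene.

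The 250 bases before the annotated start of 3 of the genes are shown because the transcripts of these genes had lower means in cRADΔ/Δ-MLPKO. RefSeq windows on GRCm38.p6 matched 3 of the 4 genes (not *Myom2*), for *Myom1* chr17:71019307-71019556 (plus strand), for *Myom3* chr4:135759465-135759714 (plus strand) and for *Obsl1* chr1:75506453-75506702 (minus strand). Which start was used in these hearts was not measured. Capitals mark matches on either strand to motifs of muscle regulators, which are the E-box of MyoD-type factors, spelled CANNTG, the MCAT motif of TEAD factors, spelled CATTCC, the motif of GATA factors, spelled AGATAA, and the MEF2 and CArG motifs.
Myom1: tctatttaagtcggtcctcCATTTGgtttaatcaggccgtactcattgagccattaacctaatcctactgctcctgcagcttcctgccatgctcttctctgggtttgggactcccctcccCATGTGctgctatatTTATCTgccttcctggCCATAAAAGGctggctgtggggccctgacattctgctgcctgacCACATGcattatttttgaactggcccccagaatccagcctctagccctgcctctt
Myom3: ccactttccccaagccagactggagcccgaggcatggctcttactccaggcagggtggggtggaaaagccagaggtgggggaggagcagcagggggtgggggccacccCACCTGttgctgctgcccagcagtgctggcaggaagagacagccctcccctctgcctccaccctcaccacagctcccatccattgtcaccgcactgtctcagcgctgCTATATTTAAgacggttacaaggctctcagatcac
Obsl1: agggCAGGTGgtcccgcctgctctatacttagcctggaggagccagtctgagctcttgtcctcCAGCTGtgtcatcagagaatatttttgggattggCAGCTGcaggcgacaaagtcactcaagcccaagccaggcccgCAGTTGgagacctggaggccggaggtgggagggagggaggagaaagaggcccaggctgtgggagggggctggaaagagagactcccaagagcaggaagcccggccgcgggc
The window of *Myom1* held 3 E-boxes, 1 GATA match and 1 CArG match, the motif bound by serum response factor, 90 to 99 bases before the start. A CArG match was present in 1.47% of the 32841 RefSeq windows of the same length. *Myom3* held 1 E-box and 1 MEF2 match, 26 to 35 bases before the start, which overlaps a TATA run. MEF2 matches were present in 2.92% of windows. *Obsl1* held 4 E-boxes and none of the other motifs. E-boxes were found in 66.2%, GATA matches in 9.99% and MCAT matches in 12.6% of windows, and no MCAT letters were in these 3 windows. No match marked in capitals overlapped another. These matches are letters in a window and do not show that a factor bound there.

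The total count per heart ranged from 33457406 to 49965101. *Csrp3* transcript was counted in all hearts, although both groups are named knockouts, at 1009 to 3261 CPM in MLPKO and 691 to 1177 CPM in cRADΔ/Δ-MLPKO (log2 fold change −1.08, edgeR adjusted p = 0.0667, DESeq2 adjusted p = 0.0362). *Rrad* had 140 to 282 CPM in MLPKO and 135 to 202 CPM in cRADΔ/Δ-MLPKO (log2 fold change −0.38, standard error 0.20, edgeR adjusted p = 0.29). Counts per gene do not show which exons were read, and *Rrad* RNA of other cell types is included, so the counts do not test the deletion. MLPKO mouse 2 stood apart from the other hearts on the first principal component of log2 CPM, with a score of 55.7 against −24 to 22.5 in the other 9. Of the genes tested, 2.74% differed between the genotypes by the edgeR quasi-likelihood test once p-values were adjusted over all 13452 genes (Benjamini-Hochberg, threshold 0.05), 1.80% lower and 0.944% higher in cRADΔ/Δ-MLPKO.

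All 4 M-band transcripts had lower means in cRADΔ/Δ-MLPKO than in MLPKO. *Obsl1* fell to 73% of the MLPKO mean and passed the test. *Myom1* was at 76.2%, *Myom2* at 46.9% and *Myom3* at 8.28% of the MLPKO mean, and each of these 3 narrowly missed the edgeR threshold, with adjusted p-values of 0.0571, 0.0558 and 0.057. Without MLPKO mouse 2, the mean of *Myom3* in cRADΔ/Δ-MLPKO was 25% of that in MLPKO. So edgeR called 1 of the 4 genes, against 2.74% of all genes, and without MLPKO mouse 2 it again called 1 of the 4, against 2.58% (1.67% lower). At an unadjusted p under 0.05 all 4 were lower, against 21.6% of genes in either direction and 11.5% lower. DESeq2, the tool of the study, called all 4 lower, where it called 10.0% of the genes it tested (6.09% lower). Because the 4 genes were chosen with earlier results of these data known, these shares do not test the set.

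**Figure D1:**
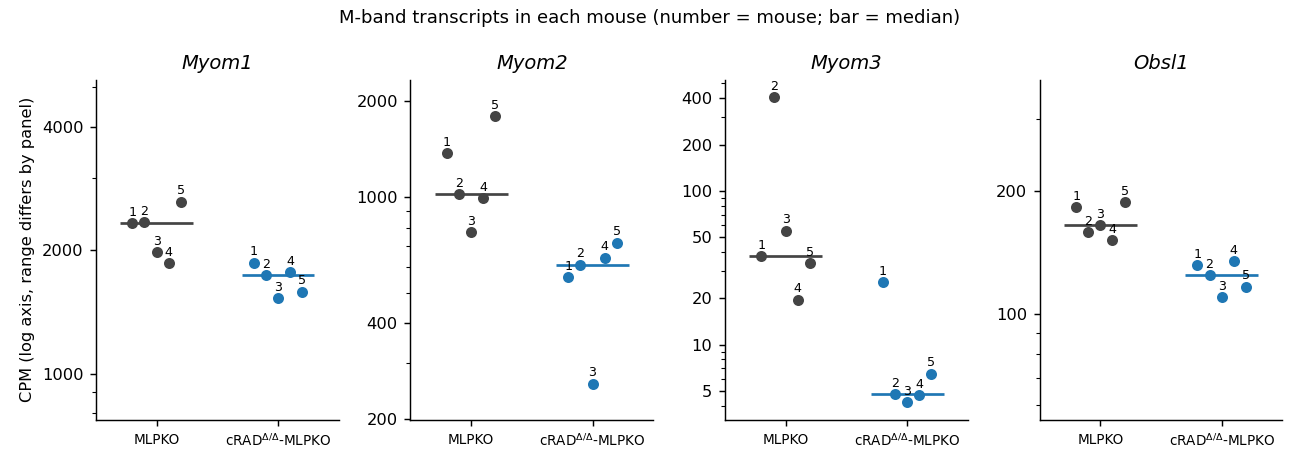
CPM (log axis, with a different range in each panel) of *Myom1*, *Myom2*, *Myom3* and *Obsl1* in each MLPKO (grey) and cRADΔ/Δ-MLPKO (blue) mouse. Points are mice, labelled with their number, and bars are medians. *Myom2* and *Obsl1* separate the genotypes, while 1 mouse of each genotype crosses over for *Myom1* and *Myom3*.

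*Obsl1* had 183, 159, 165, 152 and 188 CPM in MLPKO mice 1 to 5, and 132, 125, 110, 135 and 117 CPM in cRADΔ/Δ-MLPKO mice 1 to 5. The lowest MLPKO heart was thus above the highest cRADΔ/Δ-MLPKO heart. The log2 fold change was −0.45 (standard error 0.08, 95% interval −0.62 to −0.28, edgeR adjusted p = 0.0196, DESeq2 adjusted p = 1.89e-05). By p-value it ranked 57 of the 13452 genes. Its values differed little between mice, with a coefficient of variation of 9.3% in MLPKO and 8.15% in cRADΔ/Δ-MLPKO. When single mice were left out, the estimate stayed between −0.49 and −0.41 and *Obsl1* was called in 8 of 10 fits. It was not called without MLPKO mouse 5 (edgeR adjusted p = 0.0546) or without cRADΔ/Δ-MLPKO mouse 5 (edgeR adjusted p = 0.062).

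*Myom1*, the most abundant of the 4, had 2323, 2343, 1975, 1861 and 2626 CPM in MLPKO mice 1 to 5. In cRADΔ/Δ-MLPKO mice 1 to 5 it had 1865, 1741, 1529, 1765 and 1585 CPM. The genotypes touched at a single pair, MLPKO mouse 4 with 1861 and cRADΔ/Δ-MLPKO mouse 1 with 1865. The log2 fold change was −0.39 (standard error 0.10, 95% interval −0.61 to −0.18, edgeR adjusted p = 0.0571, DESeq2 adjusted p = 0.0042). A two-sided exact permutation test of log2 CPM over the mice gave p = 0.0159, where 0.00794 is the smallest value possible. *Myom1* ranked 36 in mean CPM among the 13452 genes.

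*Myom2*, which encodes M-protein, had 1372, 1019, 774, 993 and 1793 CPM in MLPKO mice 1 to 5. The cRADΔ/Δ-MLPKO mice had 560, 612, 259, 644 and 718 CPM. No cRADΔ/Δ-MLPKO heart reached the lowest MLPKO heart, and cRADΔ/Δ-MLPKO mouse 3 was lowest of all. The log2 fold change was −1.09 (standard error 0.27, 95% interval −1.68 to −0.50, edgeR adjusted p = 0.0558, DESeq2 adjusted p = 0.00696). The two-sided exact permutation test gave p = 0.00794, the smallest these 10 mice allow. A lower log2 fold change was found in 0.862% of all genes tested. *Myom2* and *Obsl1* were the 2 of 4 genes without overlap between the genotypes, and 6.61% of all genes had none (3.97% with cRADΔ/Δ-MLPKO lower).

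*Myom3* was the least abundant of the 4 and the most variable. MLPKO mice 1 to 5 had 37.7, 406, 55.1, 19.6 and 33.8 CPM, so mouse 2 stood far above the rest. That heart was also highest for *Csrp3* (3261 CPM) and for the stretch-induced gene *Nppa* (2435 CPM, against 106 to 1784 CPM in the other MLPKO hearts). Its sum of skeletal muscle markers, described below, was the highest of all hearts (95.8 CPM). The part of these genes in the result was not tested. cRADΔ/Δ-MLPKO mice 1 to 5 had 25.5, 4.79, 4.21, 4.68 and 6.47 CPM. Mouse 1 of this group lay within the range of MLPKO, above MLPKO mouse 4, and the other 4 lay below every MLPKO heart. The log2 fold change was −3.61 (standard error 0.91, 95% interval −5.60 to −1.62, edgeR adjusted p = 0.057, DESeq2 adjusted p = 0.00315). Without MLPKO mouse 2 it was −2.02 (edgeR adjusted p = 0.0606), and without cRADΔ/Δ-MLPKO mouse 1 it was −4.45 (edgeR adjusted p = 0.0467). The two-sided exact permutation test gave p = 0.0159. The coefficient of variation was 150% in MLPKO and 101% in cRADΔ/Δ-MLPKO, against 13.8% and 8.09% for *Myom1*.

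**Figure D2:**
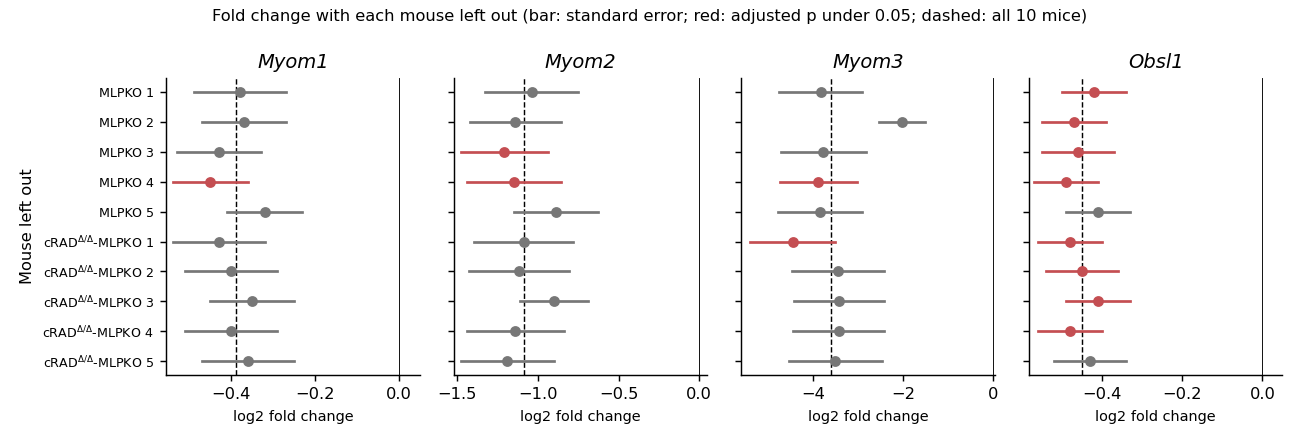
Log2 fold change of cRADΔ/Δ-MLPKO against MLPKO (x axis, a different range in each panel) for each M-band gene with the mouse named on the y axis left out. Points are estimates, bars are 1 standard error, red marks an edgeR adjusted p under 0.05 and the dashed line is the value over all 10 mice. Every estimate is below 0, and that of *Myom3* moves to −2.02 without MLPKO mouse 2.

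Which mice were high or low was not the same for the 4 genes. MLPKO mouse 5 was highest for *Myom1*, *Myom2* and *Obsl1*, whereas MLPKO mouse 2 was highest for *Myom3*. cRADΔ/Δ-MLPKO mouse 3 was lowest for all 4 genes. That heart also had the lowest cardiomyocyte marker sum (68967 CPM) and the highest endothelial (929 CPM), macrophage (292 CPM) and smooth muscle and pericyte (838 CPM) marker sums, and MLPKO mouse 5 had the highest cardiomyocyte sum (95158 CPM). The part of these markers in the members' extremes was not tested. MLPKO mouse 4 was lowest of its group for *Myom1*, *Myom3* and *Obsl1*, and MLPKO mouse 3 was lowest for *Myom2*.

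Per length of the reference transcript, *Myom1* had 390 ± 54 CPM per kb (SD, n = 5) in MLPKO and 298 ± 24.1 CPM per kb in cRADΔ/Δ-MLPKO. *Myom2* had 218 ± 73.2 CPM per kb in MLPKO and 102 ± 32.4 CPM per kb in cRADΔ/Δ-MLPKO. *Obsl1* followed with 28.4 ± 2.64 CPM per kb in MLPKO and 20.7 ± 1.69 CPM per kb in cRADΔ/Δ-MLPKO, and *Myom3* was last with 19.8 ± 29.6 and 1.64 ± 1.65 CPM per kb. The order of the levels was therefore *Myom1*, *Myom2*, *Obsl1*, *Myom3* by the means of both genotypes. In MLPKO mice 1, 3, 4 and 5, *Obsl1* was above *Myom3*, at 25.4 to 31.6 against 3.51 to 9.87 CPM per kb. In MLPKO mouse 2 *Myom3* was the higher, at 72.6 against 26.7 CPM per kb. *Myom1* and *Myom2* overlapped across MLPKO mice, at 326 to 461 against 142 to 329 CPM per kb, but *Myom1* was higher than *Myom2* within each heart.

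The 3 myomesin genes were also expressed as shares of the myomesin RNA of each heart. *Myom1* made up 61.2%, 61.3%, 69.5%, 63.8% and 57.9% of the summed myomesin CPM per kb in MLPKO mice 1 to 5, and 75.3%, 73%, 84.8%, 72.3% and 67.7% in cRADΔ/Δ-MLPKO mice 1 to 5. Only cRADΔ/Δ-MLPKO mouse 5 was within the MLPKO range. The level of *Myom2* relative to *Myom1* was 0.41 to 0.714 in MLPKO and 0.177 to 0.473 in cRADΔ/Δ-MLPKO. *Myom3* made up 10.8% of myomesin RNA in MLPKO mouse 2 and 0.686% to 1.98% in the other MLPKO hearts. In cRADΔ/Δ-MLPKO it made up 1.05% in mouse 1 and 0.195% to 0.282% in the others. When all annotated exons were taken as the length instead, the share of *Myom3* in MLPKO mouse 2 became 24.6%. These shares describe the members and were not tested.

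**Figure D3:**
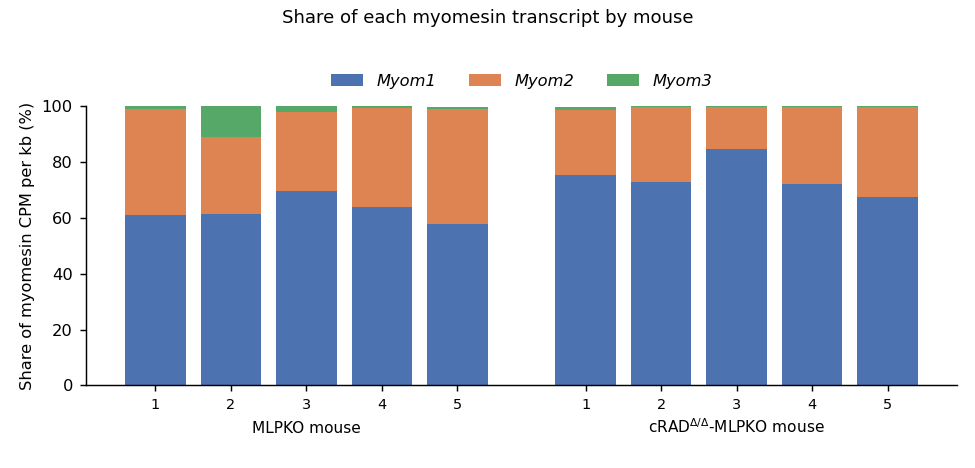
Share (%) of *Myom1* (blue), *Myom2* (orange) and *Myom3* (green) in the summed myomesin CPM per kb of reference transcript, 1 bar per mouse. *Myom1* is the largest share in all 10 hearts, and *Myom3* is visible mainly in MLPKO mouse 2, at 10.8%.

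Genes with profiles most like those of the myomesins were sought over all 10 hearts by the root mean square difference between log2 CPM profiles centred on each gene's mean, where a smaller value is a closer profile. Genotype differences are part of these profiles. Nearest to *Myom1* were *Ppm1b* (0.0503), a protein phosphatase gene, *Kpna4* (0.0542), an importin gene, *Gfpt1* (0.0711), the entry enzyme of hexosamine synthesis, *Ttc7b* (0.0741) and *Actn2* (0.0749), which encodes the Z-disc protein alpha-actinin 2. The median gene differed from *Myom1* by 0.314. *Kpna4* fell from 168 to 128 CPM (log2 fold change −0.40, edgeR adjusted p = 0.0288). *Ppm1b* (log2 fold change −0.37, edgeR adjusted p = 0.0461) and *Ttc7b* (log2 fold change −0.32, edgeR adjusted p = 0.0476) fell as well. *Actn2* had 2869 CPM in MLPKO and 2130 CPM in cRADΔ/Δ-MLPKO (log2 fold change −0.43, edgeR adjusted p = 0.0545). *Obsl1* was also close to *Myom1*, at 0.0907, with 16 of 13448 other genes nearer. Seen from *Obsl1*, 3 of the 13448 genes were nearer than *Myom1*.

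The nearest genes to *Myom2* and *Myom3* were further off, by a measure that grows with a gene's own spread. From a flat profile, *Myom1* differed by 0.242, *Myom2* by 0.731 and *Myom3* by 1.97. The nearest to *Myom2* were *Panx2* (0.33), *Tnnt1* (0.334), *Triqk* (0.352), *Cenpa* (0.353) and *Tubg2* (0.356), with the median gene at 0.764. *Tnnt1*, the troponin T of slow skeletal muscle, fell from 15.4 to 8.19 CPM (log2 fold change −0.91, standard error 0.16, edgeR adjusted p = 0.0226), and *Cenpa*, which encodes a centromere histone, fell from 44.1 to 23.9 CPM (log2 fold change −0.88, edgeR adjusted p = 0.0334). Of the 13448 genes, 132 were nearer to *Myom2* than *Myom1* was. The nearest to *Myom3* were *Rbp4* (0.638), *Ces5a* (0.694), *Ryr3* (0.753), *Sypl2* (0.815) and *Adamts8* (0.842), with the median gene at 1.98. *Ryr3*, a calcium release channel gene, had 21.8 CPM in MLPKO, with 66 in mouse 2, and 5.07 CPM in cRADΔ/Δ-MLPKO (log2 fold change −2.11, edgeR adjusted p = 0.11). MLPKO mouse 2 was also high for the other 4, with 9.32 CPM for *Rbp4*, 20.2 for *Ces5a*, 17 for *Sypl2* and 13.5 for *Adamts8*. These genes were chosen by likeness to *Myom3*, whose profile holds the high value of that heart, so this is no separate result. The nearer myomesin to *Myom3* was *Myom2*, at 1.66, with 388 genes closer, and *Myom1* was at 1.79. A flat profile was at 1.97 from *Myom3*, so both lay only a little nearer than that.

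**Figure D4:**
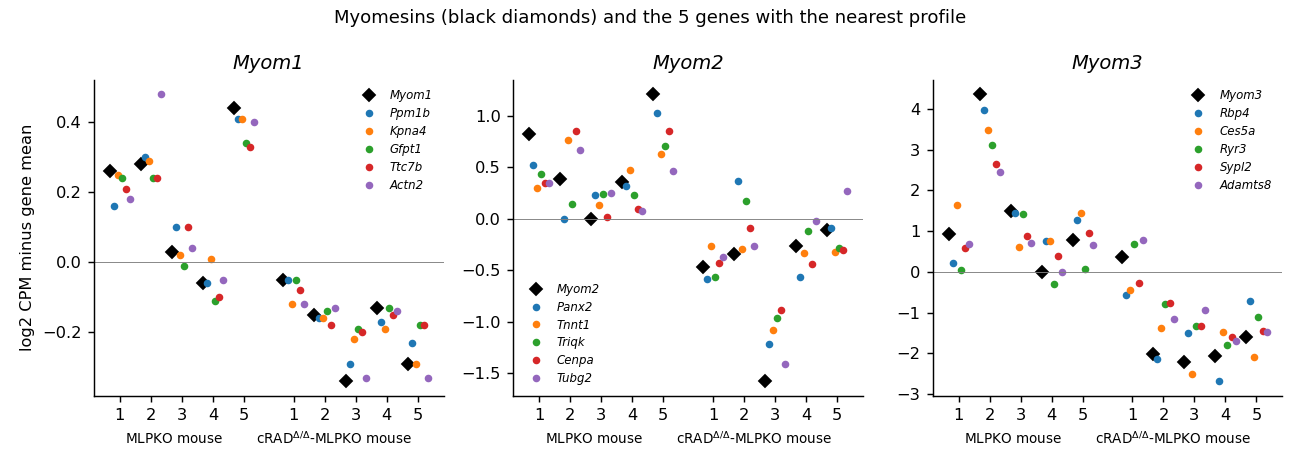
Log2 CPM minus the gene's mean over the 10 hearts (y axis, a different range in each panel) for each myomesin (black diamonds) and its 5 nearest genes (coloured points), by mouse (x axis). The order of the mice carries no meaning. The neighbours of *Myom1* lie close to it in most hearts, except *Actn2* in MLPKO mouse 2, and all genes drawn for *Myom3* are highest in MLPKO mouse 2. Neighbours were chosen by likeness to the profile drawn, the high value of that heart included.

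A list of 16 genes whose products lie at the M-band, bind its proteins or act there was examined next, and all 16 passed the count filter. edgeR called 2 of the 16 lower, against 1.80% of all genes, and none higher. At an unadjusted p under 0.05, 6 were lower, against 11.5% of all genes, and 1 was higher. DESeq2 called 4 lower, against 6.09% of the genes it tested, and none higher. Of the 16, 12 had a log2 fold change below 0, where 47.9% of all genes did. The median log2 fold change of the list was −0.19. *Trim54*, a muscle RING-finger ubiquitin ligase, fell from a median of 184 CPM (181 to 194) in MLPKO to 156 CPM (144 to 168) in cRADΔ/Δ-MLPKO (log2 fold change −0.25, standard error 0.06, edgeR adjusted p = 0.0388). *Sqstm1*, the autophagy receptor p62 that meets titin kinase with *Nbr1*, fell from a median of 462 CPM (435 to 518) to 394 CPM in cRADΔ/Δ-MLPKO, where the hearts ranged from 362 to 397 CPM (log2 fold change −0.27, standard error 0.06, edgeR adjusted p = 0.0428). Neither of these overlapped between the genotypes, where 3.97% of all genes had no overlap with cRADΔ/Δ-MLPKO lower. Of the 10 fits that left out a mouse, both calls were lost in 8 and kept without MLPKO mouse 2 or MLPKO mouse 4. *Smyd1*, a myosin-binding methyltransferase, had a log2 fold change of −0.50 (edgeR adjusted p = 0.0698, DESeq2 adjusted p = 0.00961). *Ttn*, which encodes titin, had 9679 to 11678 CPM in MLPKO and 6532 to 10292 in cRADΔ/Δ-MLPKO (log2 fold change −0.31, edgeR adjusted p = 0.139). The pseudokinase gene *Alpk3* had a log2 fold change of −0.34 (edgeR adjusted p = 0.123). *Ckm*, the muscle creatine kinase that docks at the M-band, lay on the other side, with a log2 fold change of 0.27 (edgeR adjusted p = 0.158). The estimates for *Fhl2* (0.01), *Cmya5* (−0.02) and *Trim63* (0.08) were near 0.

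**Figure D5:**
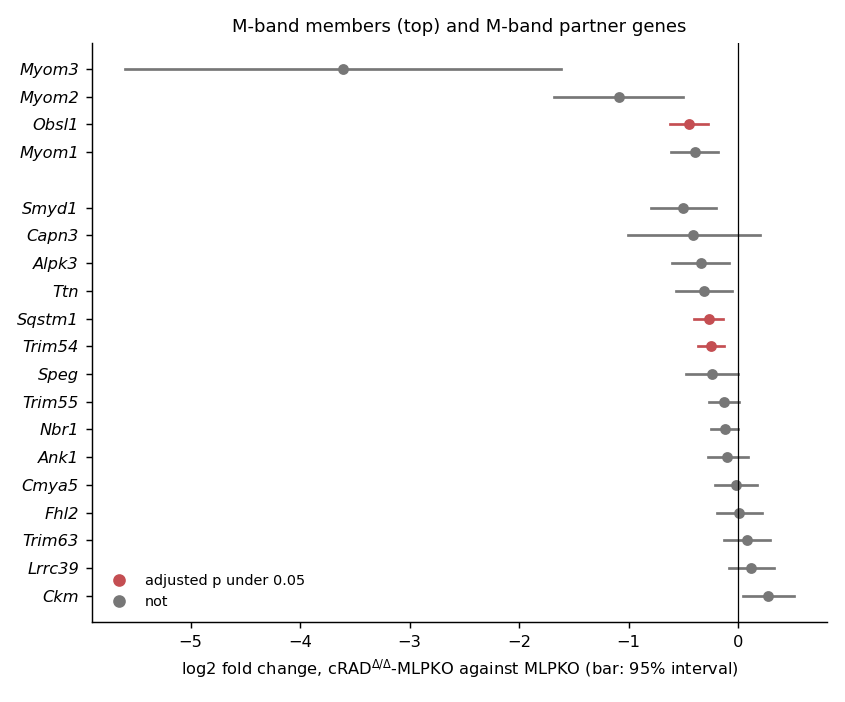
Log2 fold change of cRADΔ/Δ-MLPKO against MLPKO (x axis) for the 4 M-band genes (top) and for 15 of the 16 partner genes (below). Points are estimates, bars are 95% intervals and red marks an edgeR adjusted p under 0.05. *Obsl1*, *Sqstm1* and *Trim54* are red, and the intervals of all 4 M-band genes lie below 0.

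The genes of the 3M complex, which obscurin-like 1 joins, were examined for the same reason. Of *Cul7*, *Ccdc8*, *Fbxw8*, *Rbx1* and *Skp1*, edgeR called none, against 2.74% of all genes. At an unadjusted p under 0.05, 2 of the 5 were lower, against 11.5% of all genes, and none higher. DESeq2 called 1 lower, against 6.09% of the genes it tested. *Fbxw8*, the F-box subunit, had a log2 fold change of −0.19 (edgeR adjusted p = 0.0805, DESeq2 adjusted p = 0.0286). The scaffold gene *Cul7* had a log2 fold change of −0.18 (edgeR adjusted p = 0.195), and *Ccdc8* had one of −0.05 (edgeR adjusted p = 0.84). The difference between *Obsl1* and these genes was not tested.

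Among 8 thick filament genes, to which the M-band connects, edgeR called 1 lower, against 1.80% of all genes, and none higher. Their median log2 fold change was −0.26. At an unadjusted p under 0.05, 5 of the 8 were lower, against 11.5% of all genes, and none higher. DESeq2 called 3 lower, against 6.09% of the genes it tested. The gene called by edgeR was *Myh7*, the slow myosin heavy chain, which had 770 to 1342 CPM in MLPKO and 340 to 499 CPM in cRADΔ/Δ-MLPKO (log2 fold change −1.23, edgeR adjusted p = 0.0104). *Myh6*, the main adult cardiac myosin, had a log2 fold change of −0.29 (edgeR adjusted p = 0.104, DESeq2 adjusted p = 0.0193). *Mylk3*, the cardiac myosin light chain kinase, had one of −0.33 (edgeR adjusted p = 0.0928, DESeq2 adjusted p = 0.0297), and *Mybpc3* one of −0.27 (edgeR adjusted p = 0.177, DESeq2 adjusted p = 0.0998). *Myh7*, *Myl3* and *Mylk3*, 3 of the 8, were lower without overlap between the genotypes, against 3.97% of all genes. Of 8 further muscle genes with immunoglobulin or fibronectin domains, 4 passed the filter and edgeR called none of them. At an unadjusted p under 0.05, 3 of the 4 were lower, against 11.5% of all genes. DESeq2 called 1 lower, against 6.09% of the genes it tested. Their log2 fold changes were −0.76 for *Myot*, −0.69 for *Palld*, −0.51 for *Mypn* and −0.36 for *Mybpc2*, with a median of −0.60 that was −0.38 without MLPKO mouse 2. The other 4, *Mybpc1*, *Mybph*, *Mybphl* and *Igfn1*, did not exceed 1.58 CPM in any heart.

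The tissue carried the markers of cardiomyocytes. The sum over 10 cardiomyocyte genes ranged from 83263 to 95158 CPM in MLPKO and from 68967 to 84290 CPM in cRADΔ/Δ-MLPKO. These ranges overlap through cRADΔ/Δ-MLPKO mouse 4 and MLPKO mouse 3, and the sum was not tested. Of the single genes, 8 of the 10 had a log2 fold change below 0, against 47.9% of all genes. Only *Tnnt2* was called lower (log2 fold change −0.57, edgeR adjusted p = 0.0185), against 1.80% of all genes. At an unadjusted p under 0.05, 4 were lower, against 11.5% of all genes, and none higher. DESeq2 called 2 lower, against 6.09% of the genes it tested. In bulk tissue, fewer cells of a type and less RNA per cell cannot be told apart. The sum of 6 endothelial markers was 689 to 770 CPM in MLPKO and 810 to 929 CPM in cRADΔ/Δ-MLPKO. Each had a log2 fold change above 0, and edgeR called 1 of the 6 higher, against 0.944% of all genes. All 6 had an unadjusted p under 0.05, against 21.6% of all genes in either direction. DESeq2 called 3 of them, against 10.0% of the genes it tested. All 8 macrophage markers also had a log2 fold change above 0, with sums of 137 to 191 and 167 to 292 CPM, and edgeR called none. Their unadjusted p was under 0.05 for all 8, against 21.6% of all genes in either direction. DESeq2 called 4 of the 8, against 10.0% of the genes it tested in either direction. Of the 5 smooth muscle and pericyte markers that passed the filter *Acta2* and *Rgs5* were called higher by edgeR, against 0.944% of all genes. The others were *Cnn1* (log2 fold change −2.17, edgeR adjusted p = 0.103), *Myh11* (0.01) and *Pdgfrb* (−0.01), the median was 0.01, and the sum of all 6 was 464 to 613 CPM in MLPKO and 617 to 838 CPM in cRADΔ/Δ-MLPKO. *Cnn1* had 54.4 CPM in MLPKO mouse 2, against 4.39 to 8.27 CPM in the other MLPKO hearts. The sums of 8 fibroblast markers overlapped (1361 to 1995 and 1110 to 2043 CPM) and none was called, nor at an unadjusted p under 0.05 or by DESeq2. Skeletal muscle is the other tissue rich in myomesins, and 13 of its markers summed to 45.6 to 95.8 CPM in MLPKO and 30.2 to 77 CPM in cRADΔ/Δ-MLPKO, with the fast myosin gene *Myh4* at 0 in all 10 hearts. The highest sums, in MLPKO mouse 2 (95.8 CPM) and cRADΔ/Δ-MLPKO mouse 4 (77 CPM), were mostly *Neb* (71.5 and 59.8 CPM). *Mylpf* was lowest of its group in MLPKO mouse 2 (0.444 CPM). Of the 13 markers, 6 passed the filter and edgeR called none. At an unadjusted p under 0.05, 1 was lower, against 11.5% of all genes. DESeq2 called 1 lower, against 6.09% of the genes it tested. The sum of 5 atrial markers ranged from 109 to 2440 CPM in MLPKO and from 148 to 438 CPM in cRADΔ/Δ-MLPKO, nearly all of it *Nppa*. Of the 3 that passed the filter none was called by edgeR or DESeq2 (1 lower at an unadjusted p under 0.05, against 11.5% of all genes). In cRADΔ/Δ-MLPKO mouse 1, *Myl4* had 19.6 CPM, against 1.61 to 2.7 CPM in the other mice of its group. *Myl7* had 4.55 CPM in that heart, against 0.327 to 0.633 CPM. That mouse was also the highest of its group for *Myom3*. The part of the non-muscle, skeletal and atrial markers in the results for the M-band genes was not tested.

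Relative to the summed cardiomyocyte markers, the means of all 4 M-band transcripts were lower in cRADΔ/Δ-MLPKO. In MLPKO this sum averaged 87042 CPM, of which *Myh6* gave 36497, *Atp2a2* 14318 and *Actc1* 10546 CPM. It also holds *Tnnt2*, which was itself called lower, so these are not levels per cardiomyocyte. Per 1000 CPM of the markers, *Obsl1* had 1.78 to 2.12 CPM in MLPKO and 1.51 to 1.81 in cRADΔ/Δ-MLPKO, which overlap, unlike its CPM. *Myom1* had 21.8 to 27.6 in MLPKO and 20.4 to 25.7 in cRADΔ/Δ-MLPKO, which overlap. *Myom2* had 9.3 to 18.8 in MLPKO and 3.75 to 9.23 in cRADΔ/Δ-MLPKO, without overlap. *Myom3* had 0.23 to 4.76 in MLPKO and 0.0555 to 0.352 in cRADΔ/Δ-MLPKO, which overlap. With library sizes set by these markers, a scaling chosen after the data had been seen that moved the median log2 fold change of all genes from 0.01 to 0.21, the estimates were −0.26 (edgeR adjusted p = 0.0371) for *Obsl1*, −0.19 (edgeR adjusted p = 0.136) for *Myom1*, −0.90 (edgeR adjusted p = 0.0258) for *Myom2* and −3.41 (edgeR adjusted p = 0.0274) for *Myom3*. On that scale 0.810% of all genes were called lower and 14.6% higher. Of the 16 M-band partners none was called lower and 2 were called higher, *Ckm* and *Lrrc39*, a share near that of all genes, and *Trim54* and *Sqstm1* were no longer called.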

How the data were processed

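The authors checked the reads of 1 polyA-selected library per mouse with FastQC, aligned them with STAR (GRCm39) and obtained counts with featureCounts. The counts were deposited without normalization. Tool versions and the settings for strand, read pairs and shared reads are not given in the sources used here, so reads of genes that overlap on opposite strands may not be separated. Of counts from 1 to 20, 73.7% to 80.3% per library were even, as they would be if both mates of a pair were counted. A count may then stand for fewer fragments than its value, the minimum of 10 included. Of 60676 genes, 3491 had no value and were not used.

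As in the study, a gene had to exceed 10 counts in 6 of the 10 mice, and Gm and Rik names were dropped. Genotypes were compared by edgeR 4.0.16 (R 4.3.3, TMM factors, quasi-likelihood), checked on simulated counts, and the Benjamini-Hochberg threshold was 0.05. The standard error is the log2 fold change over the root of F. DESeq2 1.42.0, limma-voom (limma 3.58.1), other size factors and filters, robust dispersion, a block by mouse number and leaving out each mouse were alternatives. CPM used TMM library sizes, and log2 CPM a prior count of 2.

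Genes named are the members, *Rrad*, *Csrp3*, fixed lists (M-band partners, the 3M complex, the thick filament, muscle immunoglobulin and fibronectin genes, markers of 7 cell types) and the 5 genes nearest in profile to each myomesin, with genes overlapping the members. Members and lists were chosen with earlier results of these data known. One listed M-band partner is not reported by name here.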

Additional observations from a re-analysis of the deposited data

Results flagged for a closer look

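In 78 groups of 5 mice (39 genes in each genotype), 12 had a mouse whose distance from the next was more than 0.71 of the range, where chance gives about 1 in 20. For *Myom3*, MLPKO mouse 2 had 406 CPM against 19.6 to 55.1 in the other MLPKO mice, and cRADΔ/Δ-MLPKO mouse 1 had 25.5 CPM against 4.21 to 6.47. No group of *Myom1*, *Myom2* or *Obsl1* had such a mouse.

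Among M-band partners, *Sqstm1* was low in cRADΔ/Δ-MLPKO mouse 5, with 362 CPM against 391 to 397, and *Ank1* was high in cRADΔ/Δ-MLPKO mouse 2, with 284 CPM against 234 to 245. In the 3M complex, *Cul7* was high in MLPKO mouse 4 (38 CPM against 31.7 to 33.1), *Ccdc8* was high in cRADΔ/Δ-MLPKO mouse 2 (7.53 CPM against 5.35 to 5.88), *Fbxw8* was low in MLPKO mouse 1 (41.9 CPM against 43.6 to 44.2) and *Rbx1* was low in MLPKO mouse 2 (50.6 CPM against 54.9 to 56.1). *Mylk3* was high in MLPKO mouse 5 (673 CPM against 543 to 577) and low in cRADΔ/Δ-MLPKO mouse 3 (353 CPM against 476 to 498). *Myot* was high in cRADΔ/Δ-MLPKO mouse 1 (223 CPM against 151 to 171), and *Palld* was high in MLPKO mouse 2 (820 CPM against 286 to 429).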

How the results depend on the processing

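The 4 log2 fold changes were negative under the 9 other analysis settings listed above, in all 10 fits that left out a mouse and with library sizes set by cardiomyocyte markers. *Obsl1* was called under all 9 (edgeR, DESeq2 or limma-voom adjusted p 1.89e-05 to 0.0382). DESeq2 called 1298 genes in place of 369, and with them *Myom1* (−0.39), *Myom2* (−1.09), *Myom3* (−3.60) and 4 M-band partners. Scaling by cardiomyocyte markers, added after the data had been seen, called 2070 genes (109 lower, 1961 higher), *Myom2* (−0.90) and *Myom3* (−3.41) among them. Of the M-band partners 0 were called with upper quartile size factors, without a count filter or with the mouse number as a block, where the main fit had 6 lower and 1 higher at an unadjusted p under 0.05 and DESeq2 called 4. Upper quartile size factors gave 207 lower and 175 higher calls over all genes, against 242 and 127. With each mouse left out, edgeR called 47 (without MLPKO mouse 5) to 826 genes (without MLPKO mouse 4) and 0 to 4 M-band partners. The log2 fold change was −0.45 to −0.32 for *Myom1* (called in 1 of 10), −1.21 to −0.89 for *Myom2* (2 of 10), −4.45 to −2.02 for *Myom3* (2 of 10) and −0.49 to −0.41 for *Obsl1* (8 of 10). The causes were not tested.

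Both genotypes have mice numbered 1 to 5, but these are different animals. Deviations of same-numbered mice from their group means correlated at −0.0442 to 0.152, and mice 2, 4 and 5 matched another number better. With the number as a block, *Myom2* was called (−1.11, edgeR adjusted p = 0.017), *Myom3* was at −2.89 (edgeR adjusted p = 0.0864) and 281 genes were called.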

Other observations

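*Myl12a*, a regulatory myosin light chain gene of non-muscle cells, overlaps *Myom1* on the opposite strand and shares 1.53% of the exon length of *Myom1*. It had 447 ± 126 CPM (SD, n = 5) in MLPKO and 271 ± 49 CPM (SD, n = 5) in cRADΔ/Δ-MLPKO, with a log2 fold change of −0.72 (edgeR adjusted p = 0.0567). *Inha*, which overlaps *Obsl1*, had a log2 fold change of −0.38 (edgeR adjusted p = 0.284), as did *Tmem198* (edgeR adjusted p = 0.552).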
